A study of Mus musculus with 12 samples.

Results

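Enzymes that take apart or conjugate foreign compounds, reactive aldehydes and small endogenous signals were followed at the RNA level in stromal cells (SCs) of lymph nodes. The set comprised 56 of the 10253 genes in the deposited expression table. Members were chosen by gene symbol alone, as cytochromes P450 (Cyp, 14 genes), flavin monooxygenases (Fmo, 3), aldehyde dehydrogenases (Aldh, 11), aldo-keto reductases of the Akr1 class (7), epoxide hydrolases (Ephx, 2), glutathione transferases (Gst and Mgst, 14), UDP-glucuronosyltransferases (Ugt, 1), sulfotransferases (Sult, 3) and the methyltransferase gene Inmt. The retinaldehyde dehydrogenase genes Aldh1a1, Aldh1a2 and Aldh1a3 matched the symbols and were left out by the same rule, which used no measured value.

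Non-endothelial SCs were FACS-sorted as CD45-CD24-CD31- cells carrying podoplanin (gp38, Pdpn) from lymph nodes that drain the gut (mesenteric, mLN) or the skin (peripheral, pLN). The mice were BALB/c animals held under specific pathogen-free (SPF) conditions or germ-free (GF), which gives 4 groups of 3 RNA-seq libraries, mLN SPF, mLN GF, pLN SPF and pLN GF. The SPF mice were aged 7 to 12 weeks and the GF mice 6 to 10 weeks. Of the SPF lines that the study lists, CD90.1 is the one on BALB/c, but which line gave these cells is not stated. The GF mice were made by caesarean section at another institute and kept in isolators or micro-isolators. Housing, place of origin, a possible CD90.1 allele and age therefore cannot be told apart in any comparison of SPF with GF mice. The reporting form of the study says in general that bulk sequencing was replicated in independent experiments. No label says which of the 3 libraries of a group came from separate experiments or animals, so p-values measure the spread between these libraries, part of which may be technical. A label field of the pLN samples calls that node both skin-draining and mesenteric, and sample titles decided the group.

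Detoxification is usually described in steps. Cytochromes P450 and flavin monooxygenases add oxygen to a compound, aldehyde dehydrogenases, aldo-keto reductases and epoxide hydrolases deal with the reactive carbonyls and epoxides that arise, and transferases attach glutathione, glucuronic acid, sulfate or a methyl group so that the product can be exported. Several of the same enzymes also end the action of signals such as retinoic acid, oestrogens, progesterone and oxysterols. Fibroblasts carry part of this equipment, and lymph node SCs meet what the lymph brings from gut or skin.

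Levels are RPKM, read counts that the authors divided by exon length and by the sequencing depth of the library, and differences are given on the log2(RPKM + 1) scale with the limma standard error. A gene was called when its limma Benjamini-Hochberg adjusted p over all 9764 tested genes was under 0.05 and the change was at least 2-fold on that scale. Reads recovered from the RPKM steps summed to between 4.41 and 13.0 M per library, and 9319 to 9588 genes reached 1 RPKM. Pdpn, the marker of the sort, stood at group means of 58.8 to 74.9 RPKM, whereas Pecam1, which encodes the excluded CD31, stayed at 0.696 to 0.926 RPKM. Cd24a stood at 1.55 and 1.02 RPKM in mLN and 4.03 and 4.78 RPKM in pLN of SPF and GF mice. It was called lower in mLN in GF mice (-1.48, limma adjusted p = 1.41e-05) and not in SPF mice (-0.96). Ptprc, which encodes the excluded CD45, was not among the deposited genes. Markers of SC subsets differed strongly by location. Of 7 CD34+ SC markers, 6 in SPF and 7 in GF mice were higher in mLN, with a summed level of 3830 to 5000 RPKM per library in mLN and 823 to 2180 RPKM in pLN. All 6 T zone fibroblastic reticular cell (FRC) markers were lower in mLN in both housings, at 213 to 1090 against 8620 to 14700 RPKM, and so were 7 of 9 perivascular and smooth muscle markers, at 30.5 to 114 against 456 to 616 RPKM. Single markers of other cell types were called higher in mLN in both housings. Of 7 endothelial markers this was Tek, at 76.5 against 22.0 RPKM in SPF mice, while Cdh5, Kdr, Lyve1, Prox1 and Vwf stayed under 1 RPKM in all libraries. The adipocyte marker Fabp4 stood at 49.4 against 14.9 RPKM and the mesothelial marker Wt1 at 7.31 against 0.823 RPKM in SPF mice. Of 7 adipocyte markers only 3 were among the deposited genes. Of these, Pparg was not called (0.64 in SPF and 0.29 in GF mice) and Cfd did not pass the filter. Wt1 was the only mesothelial marker of 5 among the deposited genes. Because these are bulk values, fewer cells of a type and less RNA per cell cannot be told apart, and the part of these markers in the results below was not tested. The subset lists follow subsets that the study names, so their direction is not independent evidence.

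All 56 members passed the filter of 1 RPKM in at least 3 libraries, and 52 of them reached 1 RPKM in all 12 libraries. The overall mean was above 100 RPKM for 7 members, from 10 to 100 for 28 and below 10 for 21. Summed over the members, the level was 2577 to 3131 RPKM per mLN library and 3184 to 4259 RPKM per pLN library, 0.824% to 1.27% of the table's total. Gstm1, a mu-class glutathione transferase, alone made up 23.0% to 31.9% of that sum.

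**Figure D1:**
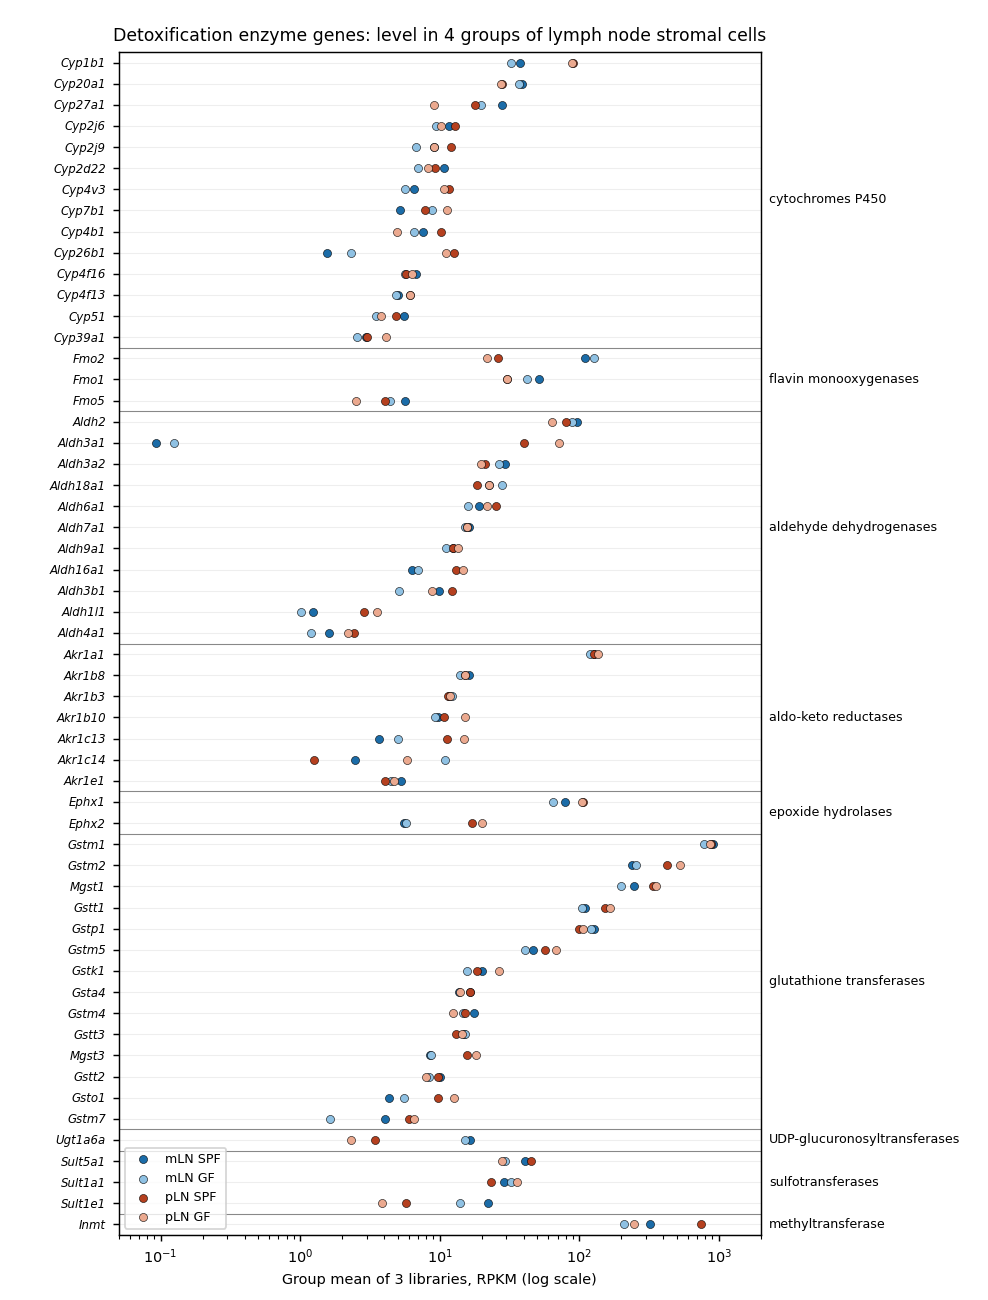
Mean RPKM of 3 libraries (log-scaled axis) of each of the 56 members in the 4 groups, ordered by enzyme family and level. Most members lie within a narrow band across the groups, while Aldh3a1 spans 0.0921 RPKM in mLN SPF to 71.8 RPKM in pLN GF, and Gstm1 is highest in every group at 780 to 914 RPKM.

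The first question was whether members differ between gut-draining and skin-draining nodes. In SPF mice 10 of 56 members were called. Of these, 3 (5.36%) were higher in mLN, against 3.99% of all tested genes called higher, and 7 (12.5%) were lower, against 6.41% of all tested genes called lower. In GF mice 13 were called, 4 (7.14%) higher against a background of 4.57%, and 9 (16.1%) lower against 6.87%. The member median was -0.07 in SPF and -0.22 in GF mice, beside 0.09 and 0.00 over all tested genes. At adjusted p alone, 27 members (48.2%) passed in SPF mice, against 33.5% of all tested genes, and 32 (57.1%) in GF mice, against 35.4%. With a pseudocount of 5 the change fell under 2-fold for Akr1c13 (-0.91 in SPF and -0.95 in GF mice), Gsto1 (-0.66 and -0.72), and, in GF mice, Gstm7 (-0.79), Aldh1l1 (-0.51) and Cyp27a1 (0.83). Fmo2, Ugt1a6a and Sult1e1 were higher in mLN in both housings, and Aldh3a1, Cyp26b1, Ephx2, Akr1c13, Cyp1b1 and Gsto1 were lower in both. These 9 moved in the same direction in both housings. How many of all tested genes were called in both housings was not counted, so this is not read as particular to the members. Inmt was called in SPF mice alone, and Gstm7, Aldh1l1, Gstm2 and Cyp27a1 in GF mice alone, but of these 5 only Gstm7 passed the test of the difference between housings, given further on. With a pseudocount of 0.1 or with voom, Aldh1l1 was called in SPF mice as well. Under the same 2 settings Aldh16a1 was called in SPF (-1.04 and -1.08) and GF mice (-1.07 and -1.09). Mgst3 was then called in GF mice (-1.06 and -1.03). Over all tested genes these settings gave 1285 and 1289 calls in SPF mice, against 1016 in the main fit. In GF mice they gave 1390 and 1431, against 1117. Libraries of mLN and pLN did not overlap for 31 of 56 members in SPF and 37 in GF mice. The share over all tested genes was 43.5% in SPF and 50.2% in GF mice. All called members were among those without overlap, which the call rule already favours.

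**Figure D2:**
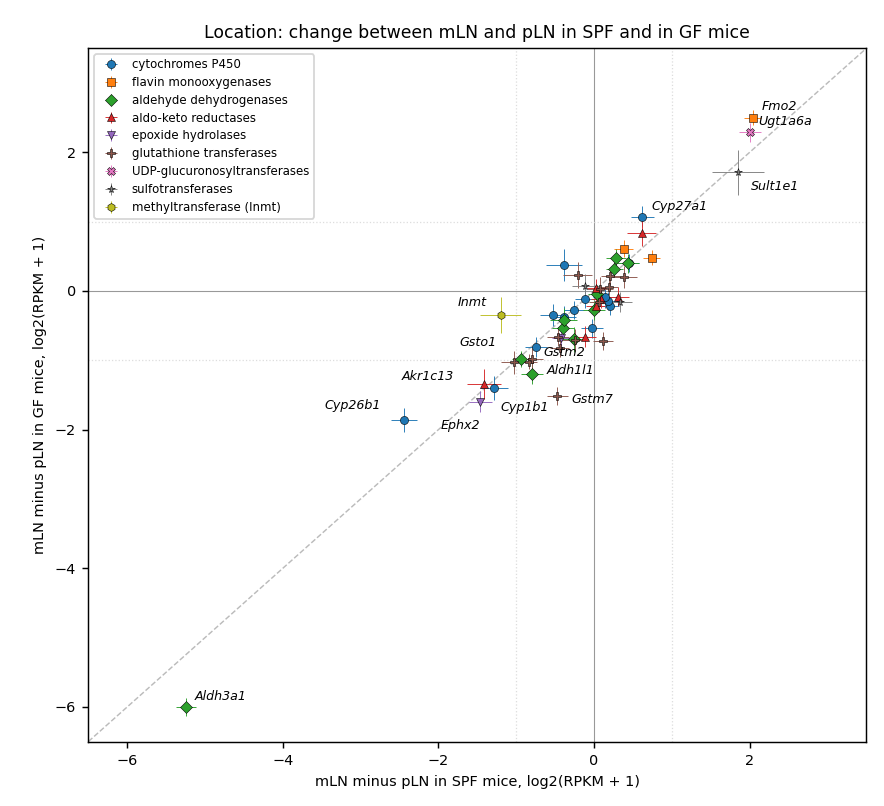
Change between mLN and pLN of each member in SPF mice (x axis) and in GF mice (y axis), in log2(RPKM + 1), with limma standard errors, dotted lines at 2-fold and a dashed line of equal change. Aldh3a1 lies apart at -5.25 and -6.00, Cyp26b1 follows at -2.44 and -1.86, and Fmo2 (2.04 and 2.50), Ugt1a6a (2.0 and 2.29) and Sult1e1 (1.85 and 1.71) lie at the other end.

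Of the 14 cytochromes P450, 2 were lower in mLN in SPF mice, and in GF mice 2 were lower and 1 higher. Cyp1b1 hydroxylates oestradiol and polycyclic aromatic hydrocarbons and is a classical target of the aryl hydrocarbon receptor. It had the highest mean of the family. In SPF mice its level was 28.2, 50.9 and 33.9 RPKM in mLN and 92.4, 98.3 and 81.7 RPKM in pLN. In GF mice it was 30.7, 35.8 and 31.6 against 107, 74.3 and 84.0 RPKM. Every pLN library was above every mLN library. The change was -1.29 ± 0.18 in SPF (limma adjusted p = 4.18e-05) and -1.40 ± 0.18 in GF mice (limma adjusted p = 1.65e-05). Cyp26b1, which clears retinoic acid, was low in mLN, at 1.79, 0.953 and 1.90 in SPF and 2.12, 2.62 and 2.21 RPKM in GF mice. In pLN it reached 10.2, 14.0 and 14.0 in SPF and 13.7, 9.30 and 10.5 RPKM in GF mice. The 6 mLN libraries thus lay below all 6 pLN libraries. The difference was -2.44 ± 0.17 (limma adjusted p = 2.10e-08) in SPF and -1.86 ± 0.17 (limma adjusted p = 4.20e-07) in GF mice.

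Cyp27a1, the mitochondrial sterol 27-hydroxylase that makes an oxysterol and takes part in bile acid synthesis, was the only cytochrome P450 called higher in mLN. In GF mice it stood at 20.5, 17.3 and 21.8 RPKM in mLN and 7.70, 11.8 and 7.65 RPKM in pLN. In SPF mice the levels were 27.4, 29.2 and 27.8 against 19.1, 16.4 and 18.3 RPKM. Groups did not overlap within either housing. The change was 1.07 ± 0.15 in GF mice (limma adjusted p = 2.58e-05), and 0.62 ± 0.15 in SPF mice, under 2-fold. Without pLN GF replicate 1 the GF change was 0.98, and without pLN GF replicate 3 it was 0.98 as well, both under 2-fold. The 12 cytochromes P450 not called in SPF mice changed by -0.75 to 0.62, and the 11 not called in GF mice by -0.81 to 0.41.

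In GRCm38, Cyp1b1 lies on chromosome 17 from 79701537 to 79715061, Cyp26b1 on chromosome 6 from 84571414 to 84593908 and Cyp27a1 on chromosome 1 from 74713574 to 74737892, all protein-coding. The 250 bases before the RefSeq transcription start (GRCm38.p6) are shown for the 2 cytochromes P450 that were called lower in mLN in both housings. They are given 5′ to 3′ on the strand of the gene. Capitals mark matches to GCGTG, the core to which the aryl hydrocarbon receptor complex binds, searched on both strands.
Cyp1b1 (chr17:79715062-79715311, minus strand): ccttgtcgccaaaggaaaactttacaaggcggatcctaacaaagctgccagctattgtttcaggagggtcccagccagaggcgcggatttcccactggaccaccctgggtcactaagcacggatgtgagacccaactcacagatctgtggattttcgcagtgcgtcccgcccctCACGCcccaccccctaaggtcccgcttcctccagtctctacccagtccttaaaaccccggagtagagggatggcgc
Cyp26b1 (chr6:84593811-84594060, minus strand): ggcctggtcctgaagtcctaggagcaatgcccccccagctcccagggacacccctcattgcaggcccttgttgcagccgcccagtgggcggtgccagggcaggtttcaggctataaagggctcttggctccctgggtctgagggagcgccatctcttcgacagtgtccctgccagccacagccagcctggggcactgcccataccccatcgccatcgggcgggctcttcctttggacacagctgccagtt
The Cyp1b1 window held 1 match, on the other strand, and the Cyp26b1 window 0. Such a window was at hand for 45 of the 56 members, 52 windows in all. GCGTG was in 16 of these (30.8%), against 28.2% of all 32851 windows of this length in the RefSeq table, so the matches are a description of the letters only.

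All 3 flavin monooxygenases had positive changes between mLN and pLN, and 1 was called. Fmo2, an enzyme that oxygenates sulfur and nitrogen atoms of drugs and is best known from lung, had the largest change on the higher side on the log2(RPKM + 1) scale, whereas the ratio of group means was larger for Ugt1a6a, which is lower in level (4.81-fold in SPF and 6.58-fold in GF mice). In SPF mice Fmo2 stood at 107, 115 and 107 RPKM in mLN and at 25.5, 27.2 and 25.2 RPKM in pLN. In GF mice the levels were 142, 115 and 128 RPKM in mLN and 22.4, 22.0 and 21.0 RPKM in pLN. The lowest mLN library was thus far above the highest pLN library. The change was 2.04 ± 0.11 in SPF (limma adjusted p = 1.08e-09) and 2.50 ± 0.11 in GF mice (limma adjusted p = 1.67e-10), a 4.23-fold and a 5.88-fold ratio of the group means. The other 2 members of the family changed by 0.38 and 0.74 in SPF and by 0.48 and 0.61 in GF mice, under 2-fold. Across the 12 libraries and all tested genes, the log2 levels most like those of Fmo2 were those of C1qtnf3 (Pearson r = 0.994), Heg1 (0.992), Adam22 (0.991), Sema3d (0.991) and Ext1 (0.99). Each of these is higher in mLN too, as for Sema3d at 17.6 and 20.6 RPKM in mLN and 3.33 and 2.42 RPKM in pLN of SPF and GF mice. Because the 12 libraries fall into mLN and pLN, any gene with a similar location difference correlates in this way.

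Fmo2 lies on chromosome 1 from 162874317 to 162898726. The window before 1 of its 2 RefSeq starts is printed because Fmo2 was among the 3 members higher in mLN in both housings.
Fmo2 (chr1:162898759-162899008, minus strand): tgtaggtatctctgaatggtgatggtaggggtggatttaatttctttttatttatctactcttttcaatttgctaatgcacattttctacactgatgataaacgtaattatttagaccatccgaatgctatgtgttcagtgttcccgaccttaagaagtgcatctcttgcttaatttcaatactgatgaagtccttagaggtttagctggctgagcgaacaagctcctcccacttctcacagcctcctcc
It held 0 matches to GCGTG, and 0 to TGACNNNGC, the core of the antioxidant response element to which Nrf2 binds.

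Aldehyde dehydrogenases oxidise aldehydes to acids, and 1 of the 11 members, Aldh3a1, showed the largest change of all members. Aldh3a1 acts on medium-chain and lipid peroxidation aldehydes and is abundant in cornea. Its level in mLN was 0.0, 0.179 and 0.0977 RPKM in SPF and 0.117, 0.0991 and 0.156 RPKM in GF mice. In pLN it was 45.7, 37.6 and 38.2 RPKM in SPF and 78.3, 57.8 and 79.4 RPKM in GF mice. These levels correspond to 0 to 3 reads in each mLN library and 692 to 1916 reads in each pLN library, so mLN was at the edge of detection. Aldh3a1 passed the filter through its pLN libraries alone. The change was -5.25 ± 0.13 in SPF (limma adjusted p = 4.32e-13) and -6.00 ± 0.13 in GF mice (limma adjusted p = 1.72e-13), and its size depends on the pseudocount. Between pLN groups it was -0.80 ± 0.13 in SPF against GF mice (limma adjusted p = 0.00182), under 2-fold. The genes whose log2 levels were most like those of Aldh3a1 over the 12 libraries were Prss12 (Pearson r = 0.996), Crym (0.996), Cxcl9 (0.995), Fam174b (0.995) and Arhgdib (0.994). Cxcl9, an interferon-induced chemokine, stood at 1.03 and 1.23 RPKM in mLN and 20.7 and 31.7 RPKM in pLN of SPF and GF mice. As for Fmo2, any gene with a similar location difference correlates in this way. Fam174b does so at only 9.3 RPKM in mLN and 20.3 RPKM in pLN of SPF mice. Aldh3a1 lies on chromosome 11 from 61207537 to 61218421 and shares 0 of its 50-base windows with other annotated transcripts.

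Aldh1l1 converts a folate that carries a formyl group and is otherwise known as a marker of astrocytes. Its levels were low. In GF mice they were 0.749, 1.48 and 0.795 RPKM in mLN and 3.45, 3.60 and 3.62 RPKM in pLN, and in SPF mice 0.945, 1.60 and 1.15 against 2.87, 2.75 and 3.0 RPKM. Each pLN library was above each mLN library. The change was -1.20 ± 0.14 in GF mice (limma adjusted p = 5.10e-06) and -0.80 ± 0.14 in SPF mice, under 2-fold on this scale. The ratio of the SPF group means was 2.33-fold. With a pseudocount of 0.1 the SPF change was -1.18 and with voom -1.28, and Aldh1l1 was then called in SPF mice too. Of its 50-base windows 10% occur in other transcripts, so its level is uncertain. The 10 aldehyde dehydrogenases not called in SPF mice changed by -0.94 to 0.44, and the 9 not called in GF mice by -0.98 to 0.47. The lowest of these in both housings was Aldh16a1 (limma adjusted p = 3.33e-06 in SPF and 1.92e-06 in GF mice). Its group means in mLN and pLN were 6.33 and 13.1 RPKM in SPF and 6.94 and 14.7 RPKM in GF mice. Its groups did not overlap within either housing.

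Among the 7 aldo-keto reductases, which reduce aldehydes, ketones and steroid keto groups, Akr1c13 was lower in mLN. In SPF mice it stood at 2.97, 3.11 and 4.89 RPKM in mLN and 10, 11.5 and 12.2 RPKM in pLN. In GF mice it was at 5.27, 4.05 and 5.86 against 21.2, 9.83 and 13.7 RPKM. The groups did not overlap. The change was -1.41 ± 0.22 in SPF (limma adjusted p = 8.78e-05) and -1.34 ± 0.22 in GF mice (limma adjusted p = 1.36e-04). Akr1c13 lies on chromosome 13 from 4191150 to 4205596, and 24.2% of its 50-base windows also occur in other transcripts, mostly of Akr1c12. How reads of such windows were counted is not stated, so the level of Akr1c13 is uncertain. The other members of the class changed by -0.12 to 0.61 in SPF mice and by -0.66 to 0.84 in GF mice. The highest of these was Akr1c14, a 3-alpha-hydroxysteroid dehydrogenase encoded on the same chromosome, which moved with housing and is described below.

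Both epoxide hydrolases had negative changes. Ephx2, the soluble epoxide hydrolase that opens epoxides of arachidonic acid, was called. Under SPF conditions it stood at 5.37, 6.17 and 5.15 RPKM in mLN and 14.8, 20.2 and 16.4 RPKM in pLN. In GF mice the levels were 5.95, 5.58 and 5.82 against 23.9, 14.9 and 21.1 RPKM. The 6 mLN libraries were within 5.15 and 6.17 RPKM and lay below every pLN library. The change was -1.46 ± 0.15 in SPF (limma adjusted p = 1.95e-06) and -1.60 ± 0.15 in GF mice (limma adjusted p = 6.46e-07). The microsomal enzyme, Ephx1, changed by -0.42 in SPF and -0.68 in GF mice, under 2-fold. Ephx2 lies on chromosome 14 from 66084374 to 66124500.

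Glutathione transferases included 4 of the 5 most abundant members, Gstm1 (overall mean 859 RPKM), Gstm2 (363), Mgst1 (284) and Gstt1 (134). Gstm1 differed little, at 999, 777 and 967 RPKM in mLN and 1000, 736 and 887 RPKM in pLN of SPF mice, and at 703, 806 and 830 against 873, 817 and 913 RPKM in GF mice. The groups overlapped in both housings, and the changes were 0.07 ± 0.14 in SPF (limma adjusted p = 0.747) and -0.16 ± 0.14 in GF mice (limma adjusted p = 0.409). Of its 50-base windows 18.9% occur in other transcripts, among them Gstm3, so its level is uncertain. Mgst1, the microsomal glutathione transferase, changed by -0.44 ± 0.12 in SPF and -0.83 ± 0.12 in GF mice (limma adjusted p = 0.00878 and 4.34e-05). Gstt1, of the theta class, changed by -0.46 ± 0.14 in SPF and -0.66 ± 0.14 in GF mice (limma adjusted p = 0.0195 and 0.00172). For both genes mLN lay below pLN in every library, at less than 2-fold.

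Gsto1, an omega-class enzyme that reduces dehydroascorbate, was called lower in mLN in both housings. Under SPF conditions its levels were 3.25, 5.66 and 4.07 RPKM in mLN and 9.09, 9.86 and 10.1 RPKM in pLN. In GF mice they were 5.63, 5.65 and 5.31 against 11.2, 10.2 and 16.3 RPKM. The groups did not overlap. The change was -1.03 ± 0.17 in both housings (limma adjusted p = 1.59e-04 in SPF and 1.46e-04 in GF mice), just past 2-fold. Without mLN SPF replicate 1 the SPF change was -0.88, without pLN SPF replicate 3 it was -0.999 and no longer past the threshold, and without pLN GF replicate 3 the GF change was -0.84.

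Within the mu-class cluster on chromosome 3, Gstm2 and Gstm7 were called lower in mLN in GF mice. Gstm2 stood at 239, 258 and 274 RPKM in mLN and 540.0, 477 and 557 RPKM in pLN of the GF group. Under SPF conditions it stood at 241, 227 and 249 against 462, 390.0 and 436 RPKM. The groups were apart in both housings, and the change was -1.02 ± 0.11 in GF (limma adjusted p = 2.42e-06) and -0.84 ± 0.11 in SPF mice (limma adjusted p = 2.15e-05). Without mLN GF replicate 1 the GF change was -0.97 and without pLN GF replicate 3 it was -0.98, under 2-fold. Gstm7 was at 1.54, 1.78 and 1.63 RPKM in mLN and 7.03, 7.22 and 5.43 RPKM in pLN of GF mice. In SPF mice its levels were 4.55, 3.74 and 3.86 against 5.62, 5.25 and 7.25 RPKM. The 3 mLN GF libraries were the lowest of the 12. The change was -1.51 ± 0.13 in GF mice (limma adjusted p = 2.52e-07) and -0.47 ± 0.13 in SPF mice (limma adjusted p = 0.0119). The 13 members of the family not called in SPF mice changed by -0.84 to 0.39, and the 11 not called in GF mice by -0.98 to 0.23.

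The second motif, TGACNNNGC, was found in 4 of the 52 member windows (7.69%), against 10.2% of all windows in the table. The 4 genes were Gstm5, Gstm7, Mgst1 and Aldh9a1, 3 of them glutathione transferases, a family that makes up 14 of the 56 members. Gstm7 and Mgst1 each had another window with 0 matches. Each match is shown in capitals with 10 bases on either side, 5′ to 3′ on the strand that spells it, because glutathione transferases are the textbook genes of this element.
Gstm5 (chr3:107895802-107895830, plus strand): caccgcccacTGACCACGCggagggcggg
Gstm7 (chr3:107931725-107931753, minus strand): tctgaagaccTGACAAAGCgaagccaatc
Mgst1 (chr6:138140461-138140489, minus strand): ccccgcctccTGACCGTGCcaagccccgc
Aldh9a1 (chr1:167349894-167349922, plus strand): ttaattatgcTGACTAGGCccaagctact
The match lay 129 to 121 bases before a RefSeq start in Gstm7, 56 to 48 in Mgst1, 42 to 34 in Gstm5 and 87 to 79 in Aldh9a1. The share of member windows was below that of all windows, so these matches too are a description of the letters only. Whether a factor binds there was not measured.

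Ugt1a6a, the member of the UDP-glucuronosyltransferase family in the table, attaches glucuronic acid to phenols. In SPF mice it stood at 17.4, 15.7 and 16.3 RPKM in mLN and 4.32, 2.87 and 3.08 RPKM in pLN. In GF mice it stood at 16.0, 13.3 and 16.5 against 2.03, 2.75 and 2.19 RPKM. All 6 mLN libraries were above 13 RPKM and all 6 pLN libraries under 5 RPKM. The change was 2.0 ± 0.14 in SPF (limma adjusted p = 1.61e-08) and 2.29 ± 0.14 in GF mice (limma adjusted p = 4.91e-09). The Ugt1a genes share their last exons, and 52.1% of the 50-base windows of Ugt1a6a occur in other transcripts, most of them of Ugt1a7c, Ugt1a6b and Ugt1a2. How reads of shared sequence were counted is not stated, so the level of Ugt1a6a is uncertain. Ugt1a6a lies on chromosome 1 from 88134809 to 88218997. The window before its own RefSeq start is shown because its first exon is what sets it apart from the other Ugt1a genes.
Ugt1a6a (chr1:88134559-88134808, plus strand): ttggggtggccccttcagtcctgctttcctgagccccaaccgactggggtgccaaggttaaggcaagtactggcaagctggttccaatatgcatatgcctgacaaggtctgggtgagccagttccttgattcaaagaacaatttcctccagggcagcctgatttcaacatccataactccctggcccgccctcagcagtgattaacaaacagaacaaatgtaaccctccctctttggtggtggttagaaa
It held 0 matches to GCGTG and 0 to TGACNNNGC.

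Sult1e1, the oestrogen sulfotransferase, was the sulfotransferase called, higher in mLN in both housings. Its level in SPF mice was 20, 22.9 and 23.6 RPKM in mLN and 8.46, 3.36 and 5.40 RPKM in pLN. In GF mice it was 10.4, 19.9 and 12 against 1.46, 5.61 and 4.45 RPKM. The spread within groups was wide, yet the lowest mLN library exceeded the highest pLN library. The change was 1.85 ± 0.33 in SPF (limma adjusted p = 3.32e-04) and 1.71 ± 0.33 in GF mice (limma adjusted p = 6.22e-04). The other 2 sulfotransferases changed by -0.11 and 0.34 in SPF and by -0.16 and 0.07 in GF mice.

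Inmt, which methylates indolethylamines and names an FRC subset in the study, was the second most abundant member, with an overall mean of 382 RPKM. In SPF mice it stood at 354, 291 and 321 RPKM in mLN and 935, 579 and 741 RPKM in pLN. In GF mice it stood at 290.0, 112 and 223 RPKM in mLN and 235, 237 and 270.0 RPKM in pLN. The pLN SPF libraries were the highest of all 12, and the mLN and pLN libraries of GF mice overlapped. The change between mLN and pLN was -1.20 ± 0.26 in SPF (limma adjusted p = 0.00167) and -0.35 ± 0.26 in GF mice (limma adjusted p = 0.327). The test of the difference between these changes did not pass (-0.85 ± 0.36, limma adjusted p = 0.469).

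**Figure D3:**
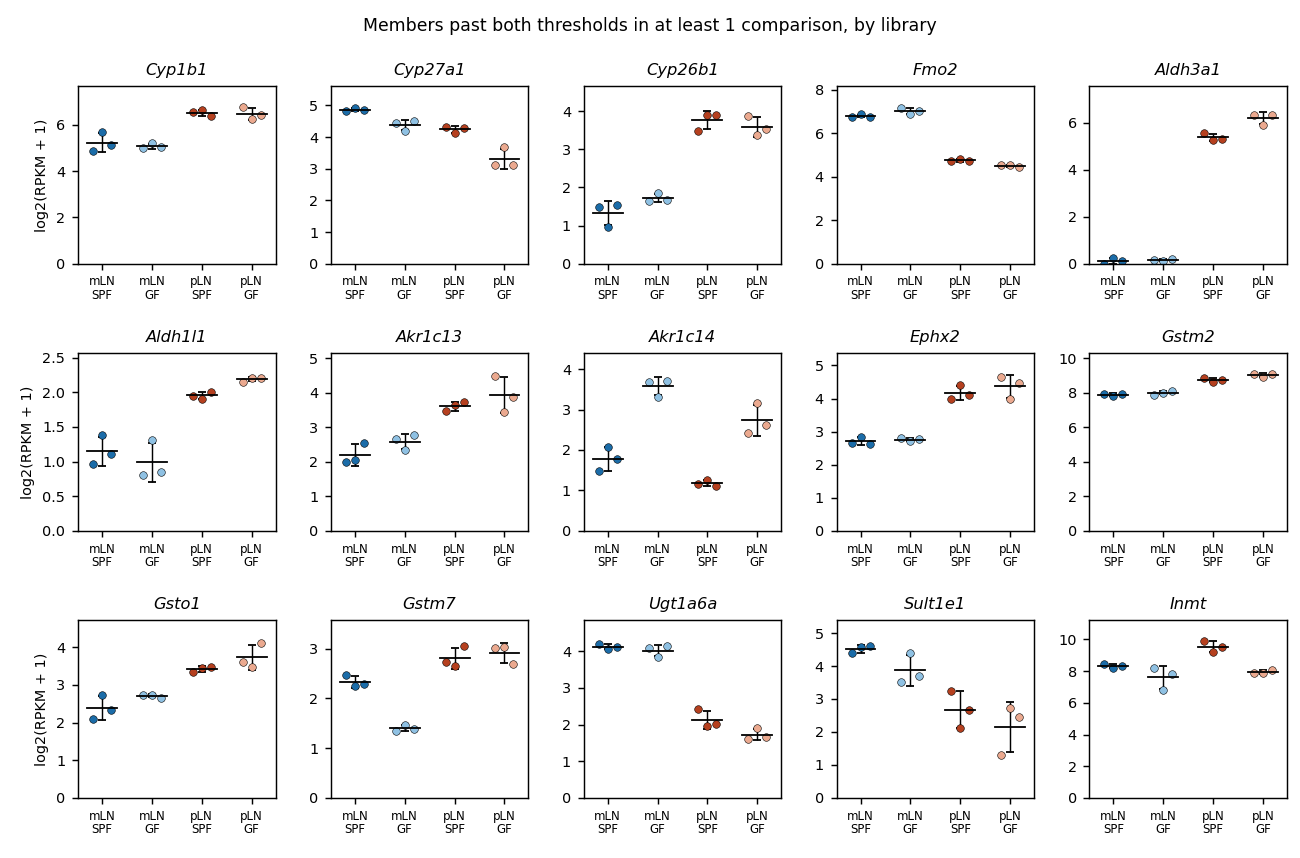
Level of the 15 members called in at least 1 comparison, as log2(RPKM + 1) from 0, with 1 point per library, the mean of 3 libraries as a line and the SD as a bar. Location separates most panels, such as Fmo2 with every mLN library above every pLN library, whereas Akr1c14 separates by housing, with the GF libraries above the SPF libraries of the same node.

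The second question was whether members differ between SPF and GF mice. Few did. In mLN 1 of 56 members was called lower in SPF mice, against 0.481% of all tested genes, and 0 were called higher, against 0.266%. By limma 18 members (32.1%) had an unadjusted p under 0.05 in this comparison, against 16.3% of all tested genes, and with voom on the recovered reads Gstm7 passed as higher (1.23). In pLN 1 was called lower, against 0.42% of all genes, and 1 higher, against 0.635%. The member median was 0.16 in mLN and 0.00 in pLN, beside 0.01 and -0.06 over all tested genes. After median-of-ratios rescaling the pLN calls of members became 3 higher and 1 lower, and the share of higher calls over all genes moved from 60.2% to 71.8%. The members added were Cyp27a1 and Cyp4b1, each at 1.02. In the main fit their pLN changes were 0.93 (limma adjusted p = 0.00114) and 0.94 (limma adjusted p = 0.0198), under 2-fold. Their pLN means were 17.9 and 10.3 RPKM in SPF and 9.06 and 4.97 RPKM in GF mice. At adjusted p alone, 5 members (8.93%) passed in mLN, against 4.61% of all tested genes, and 9 (16.1%) in pLN, against 10.8%. The mLN count was 2 without mLN GF replicate 1 or 3, and the pLN count was 4 without pLN GF replicate 2. Over all tested genes these fits gave 67 and 63 calls in mLN, in place of 73, and 142 in pLN, in place of 103. Of the 6 T zone FRC markers, 3 were lower in SPF than in GF mice in mLN, with summed levels of 213 to 500 against 641 to 1090 RPKM, and 0 were called in pLN. Of the 9 perivascular and smooth muscle markers, Acta2 was called lower in mLN of SPF mice, with a mean of 5.69 RPKM beside 26.4 RPKM in GF mice and a change of -1.92 (limma adjusted p = 0.00148). The list median was -0.48 in mLN, and 0 were called in pLN. The part of these markers in the housing results was not tested.

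Akr1c14, which reduces progesterone metabolites and other 3-ketosteroids, was lower in SPF than in GF mice in both nodes. In mLN it stood at 1.80, 3.21 and 2.43 RPKM in SPF and 11.9, 8.96 and 12.1 RPKM in GF mice. In pLN it stood at 1.23, 1.39 and 1.16 RPKM in SPF and 4.34, 7.97 and 5.13 RPKM in GF mice. Every GF library was above every SPF library of either node. The change was -1.79 ± 0.19 in mLN (limma adjusted p = 4.93e-05) and -1.56 ± 0.19 in pLN (limma adjusted p = 1.35e-04), ratios of 4.43-fold and 4.63-fold of the group means. With a pseudocount of 5 the pLN change was -0.78, under 2-fold. Its location changes of 0.61 in SPF and 0.84 in GF mice were under 2-fold. Akr1c14 lies on chromosome 13 from 4049011 to 4090688, and 5.80% of its 50-base windows occur in other transcripts.

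Inmt was higher in SPF than in GF mice in pLN, by 1.58 ± 0.26 (limma adjusted p = 0.00148) or a 3.04-fold ratio of the means given above. In mLN the change was 0.73 ± 0.26 (limma adjusted p = 0.143). The library mLN GF replicate 2, at 112 RPKM, was the lowest of its group, and mLN GF replicate 1, at 290.0 RPKM, the highest. Without mLN GF replicate 1 the mLN change was 1.02 (limma adjusted p = 0.0361), and Inmt was then called in mLN too. The mLN and pLN changes were not shown to differ.

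**Figure D4:**
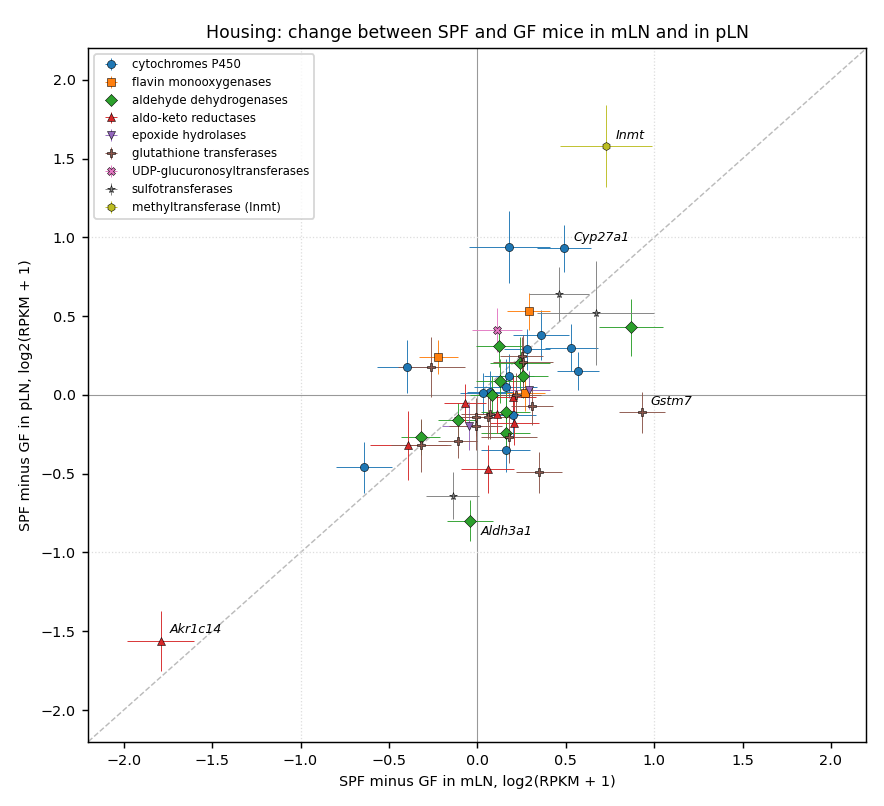
Change between SPF and GF mice of each member in mLN (x axis) and pLN (y axis), in log2(RPKM + 1), with limma standard errors, dotted lines at 2-fold and a dashed line of equal change. Akr1c14 lies apart at -1.79 and -1.56, Inmt is at 0.73 and 1.58, and Gstm7 at 0.93 and -0.11 is far from the line of equal change.

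The third question was whether the location difference depends on housing. The interaction, the housing change in mLN minus that in pLN, was called for 1 of 56 members, Gstm7, on the higher side, against 0.102% of all tested genes, and for 0 on the lower side, against 0.133%. Under the same test 13 members (23.2%) had an unadjusted p under 0.05, against 9.67% of all tested genes, and voom called 0 members in either direction. The member median was 0.12, beside 0.08 over all tested genes, and after median-of-ratios rescaling the share of higher calls over all genes moved from 43.5% to 28.6%. For Gstm7 the housing change was 0.93 ± 0.13 in mLN (limma adjusted p = 7.76e-04) and -0.11 ± 0.13 in pLN (limma adjusted p = 0.68), a difference of 1.03 ± 0.19 (limma adjusted p = 0.0273). It rests on 21 to 43 reads in each mLN GF library. The call was lost in 8 of the 12 fits that leave out 1 library. The adjusted p rose above 0.05 without mLN SPF replicate 1 (0.0851) or 3 (0.0755), mLN GF replicate 1 (0.0843) or 3 (0.0982), pLN SPF replicate 1 (0.0719) or pLN GF replicate 1 (0.0686), and the change fell under 2-fold without pLN SPF replicate 2 (0.95) or pLN GF replicate 2 (0.97). With the replicate number as a block the limma adjusted p was 0.0546, and under median-of-ratios rescaling the difference was 0.95. Leaving out mLN GF replicate 2 gave 2 calls in place of 1, the other being Inmt at -1.24. Over all tested genes that fit gave 32 calls in place of 23.

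Genes that serve the same pathways but lie outside the set were followed as a fixed list of 68, of which 53 were tested. Between mLN and pLN, 4 were called higher and 5 lower in SPF mice, and 6 higher and 6 lower in GF mice. These are 7.55% and 9.43% of the list in SPF and 11.3% and 11.3% in GF mice, against 3.99% and 6.41%, and 4.57% and 6.87%, of all tested genes. The list median was 0.07 in both housings, beside 0.09 in SPF and 0.00 in GF mice over all tested genes. Those that make the donor for glucuronidation were higher in mLN, and whether they serve glucuronidation in these cells was not tested. Ugp2, which makes UDP-glucose, was at 100.0 ± 8.62 and 30.3 ± 0.738 RPKM in mLN and pLN of SPF mice (SD, n = 3; change 1.69, limma adjusted p = 2.10e-08). Ugdh, which oxidises UDP-glucose to UDP-glucuronic acid, had means of 185 ± 10.3 and 58.3 ± 5.42 RPKM, a change of 1.65 (limma adjusted p = 1.13e-06). In GF mice their changes were 1.85 and 2.05. Other genes higher in both housings were Ces1d, a carboxylesterase (2.04 in SPF and 1.80 in GF mice), and Srxn1, which repairs peroxiredoxins (1.30 and 1.28). In GF mice Cyb5r3, which encodes cytochrome b5 reductase (1.25), and Gclc, which encodes the catalytic subunit of glutamate-cysteine ligase (1.08), were called as well.

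On the lower side of the same list stood Ahr, which encodes the aryl hydrocarbon receptor. It was at 1.75 ± 0.251 and 6.25 ± 2.15 RPKM in mLN and pLN of SPF mice (-1.36, limma adjusted p = 8.00e-05) and changed by -1.02 in GF mice. The cystine transporter gene Slc7a11 changed by -3.73 in SPF and -2.68 in GF mice, and the leukotriene C4 synthase gene Ltc4s by -1.75 and -2.05. The efflux pump gene Abcb1b changed by -2.03 and -1.52, and the alcohol dehydrogenase gene Adh1, which oxidises retinol among other alcohols, by -1.33 and -1.36. Maob, a monoamine oxidase, was called in GF mice (-1.21). Between SPF and GF mice, Ptgr2, which reduces 15-keto prostaglandins, was lower in SPF mice in both nodes, at -1.25 in mLN (limma adjusted p = 4.45e-05) and -1.18 in pLN (limma adjusted p = 5.26e-05). Gpx3, the secreted glutathione peroxidase, was higher in SPF mice in pLN at 1.01 (limma adjusted p = 9.54e-04).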

How the data were processed

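The study's methods and the notes of the submitters give the following steps. RNA of sorted SCs was amplified (SMART-Seq v4), made into Nextera XT libraries and read on a HiSeq2500 as single 50 bp reads without strand, so reads of a gene and an overlapping neighbour cannot be told apart. Reads were aligned with TopHat2 1.2.0 to GRCm38 (mm10) and counted with HTSeq 0.12.4. The deposited RPKM values were computed by the authors from raw counts. The 8 deposited columns of the authors' own pairwise log2 fold changes and p-values were not used. In 18 genes the symbol had become a date, and these are not named. No source used here says how the 10253 genes were chosen.

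Genes with at least 1 RPKM in at least 3 of 12 libraries were tested, 9764 in all, and 489 were left out. limma 3.58.1 in R 4.3.3 was fitted to log2(RPKM + 1) with 4 group means (8 residual degrees of freedom, 15.1 after moderation) and 5 contrasts. The pseudocount of 1 understates changes of low genes. Whole reads were recovered from the RPKM steps for 99.9% of genes (relative tolerance 1e-10) and served for depth and for an added voom alternative, and low depth limits values of few RPKM. Libraries of the same group differed from each other by far more than counting noise (chi-square of 4.44 to 29.9 per degree of freedom), so none was taken for a library deposited a second time. Positions are from GENCODE M21, in which all 56 members matched 1 gene, and upstream windows are from RefSeq (GRCm38.p6). Windows of 50 bases, the read length, were compared between transcripts to find shared sequence. Python 3.11.15, NumPy 2.4.6, pandas 2.3.3 and matplotlib 3.10.9 were used.

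Named are the members called in at least 1 contrast, the 5 with the highest mean, and genes of the fixed companion list that were called. Ephx1, the motif-bearing Gstm5 and Aldh9a1, and Aldh16a1, Mgst3 and Cyp4b1, which alternative settings called, were added after their values were seen. Members and lists were chosen with earlier results of these data known. Same-numbered libraries deviated together between mLN and pLN in SPF mice (correlations 0.263, 0.456 and 0.182), where the number is taken as a pairing, less so in GF mice (0.228, 0.217 and 0.079) and not between housings (-0.333 to 0.022). Alternatives were another scaling, pseudocount, filter, prior, set of libraries, call rule, replicate block, voom, and each library left out in turn.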

Additional observations from a re-analysis of the deposited data

Results flagged for a closer look

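Gstm7 is the member whose housing change differed between the nodes in a test of the difference itself. SPF minus GF was 0.93 in mLN and -0.11 in pLN, a difference of 1.03 (limma adjusted p = 0.0273), with group means of 4.05 RPKM in mLN SPF, 1.65 in mLN GF, 6.04 in pLN SPF and 6.56 in pLN GF. All 3 mLN SPF libraries were above all 3 mLN GF libraries, while the pLN libraries overlapped. Over 20 alternatives the adjusted p ranged from 0.0211 to 0.134, and the call was lost in 12 of them.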

How the results depend on the processing

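Over 591 values of the 27 member calls under alternative settings, 564 kept direction and call, 27 lost the call and 0 reversed. 17 calls held under every alternative run. Conversely, 28 values of uncalled members were called under some alternative, from 11 comparisons. The cause of these shifts was not tested, other than that adjusted p alone drops the fold threshold. With adjusted p alone the counts became 27 and 32 for location in SPF and GF mice, 5 and 9 for housing in mLN and pLN, where 33.5%, 35.4%, 4.61% and 10.8% of all tested genes passed. Pseudocount 5, which shrinks low genes, gave 8 calls for location in GF mice, 1 for housing in pLN and 0 for the interaction. Over all tested genes these were 638, 40 and 10 calls, against 1117, 103 and 23 in the main fit. Pseudocount 0.1 gave 2 and 4 for housing in mLN and pLN, where all-gene calls rose from 73 and 103 to 147 and 172. Median-of-ratios scaling gave 4 for housing in pLN and 0 for the interaction, beside 110 and 28 over all genes. Voom, chosen after seeing the data, gave 2 for housing in mLN and 0 for the interaction, beside 128 and 21 over all genes. Leaving out 1 library gave 9 to 10 calls for location in SPF mice, 10 to 15 in GF mice, 1 to 2 for housing in mLN, 2 to 4 in pLN and 0 to 2 for the interaction. Over all tested genes these fits gave 962 to 1103, 1019 to 1225, 63 to 101, 94 to 142 and 13 to 38 calls.

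With the replicate block the counts were 10, 13, 1 and 2 for the 4 pairwise comparisons, and 0 for the interaction, in which Gstm7 had an adjusted p of 0.0546. Over all tested genes the counts were 1016, 1118, 73 and 103, and 27 for the interaction. The block changed no other member call. The planned edgeR and DESeq2 alternatives on the recovered reads were not run, and voom on those reads was run in their place. Depth limits the members of few reads, above all Aldh3a1 in mLN and Gstm7 in mLN GF.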
